A study of Capra hircus with 12 samples.

Results

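The Schwann cell and myelin genes PMP22, EGR2, MBP, CDH19, NGFR and S100B were followed through the yearly cycle of the cashmere goat (Capra hircus). The members were taken by their names in the deposited tables; all 6 were found among 20326 genes (gene IDs 102184371 for PMP22, 102174905 for EGR2, 106503529 for MBP, 102169348 for CDH19, 102190168 for NGFR and 102169524 for S100B), and all 6 passed the filter on low values that left 16095 genes for testing. The material was the secondary hair follicle, the skin appendage that grows cashmere, from female and male goats labelled as 1.5 years old at every sampling. Anagen, when hair grows, was sampled in May and September, catagen, when the follicle regresses, in November and December, and telogen, when it rests, in February and March. Each month had 1 male and 1 female library, which gave 4 libraries for each stage and 12 in all. The labels name no treatment and do not say whether an animal was sampled more than once.

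Schwann cells are the glia of peripheral nerves. In skin they wrap sensory and autonomic axons, and nerve endings ring the hair follicle; some Schwann cells build myelin, a stack of membrane around 1 axon, and others keep bundles of thin axons without myelin. PMP22 and MBP are structural proteins of myelin, and EGR2 is the zinc finger transcription factor that switches on myelin genes in mouse and human Schwann cells. CDH19, a cadherin, NGFR, the low-affinity receptor for neurotrophins, and S100B, a calcium-binding protein, mark Schwann cells and their precursors. None of these genes is restricted to nerve: PMP22 is also made by many mesenchymal and epithelial cells, EGR2 by fibroblasts and lymphocytes, S100B by fat and dendritic cells, and the MBP gene also gives non-myelin transcripts in immune cells, which a single value per gene does not separate.

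Follicle epithelium was checked first. The summed level of 10 keratinocyte genes, led by KRT5, KRT14, KRT25 and KRT27, was 11900 to 19100 TPM in telogen, 20390 to 29930 TPM in catagen and 25930 to 32640 TPM in anagen. Among defining genes of Schwann cells, SOX10 was present in all libraries at 2.66 to 11.01 TPM, whereas MAG averaged 0.404 TPM and GAP43 0.499 TPM, too low to be tested. ERBB3, the neuregulin co-receptor of Schwann cells, averaged 105.7 TPM, far above these, and is also made by epithelium. Of the axonal neurofilament genes, NEFL, NEFM and NEFH averaged 0.188, 0.296 and 0.202 TPM. Transcripts of the mitochondrial genome took 4.63 to 11.8% of the signal in telogen, 2.07 to 3.51% in catagen and 1.53 to 2.42% in anagen. The March male had the lowest telogen share, and it lay nearest the other stages for several genes below.

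Levels, deposited under the heading TPM and taken here as normalized for transcript length, ranked PMP22 first with a mean of 50.7 TPM over the 12 libraries. EGR2 followed with 31.3, then S100B with 11.5, MBP with 6.90, CDH19 with 5.29 and NGFR with 4.60 TPM. The members split by their course over the year: PMP22, CDH19 and NGFR were lowest in anagen and highest in telogen, EGR2 and S100B had their lowest stage mean in catagen, and MBP stayed within 4.93 to 8.05 TPM in every library.

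**Figure D1:**
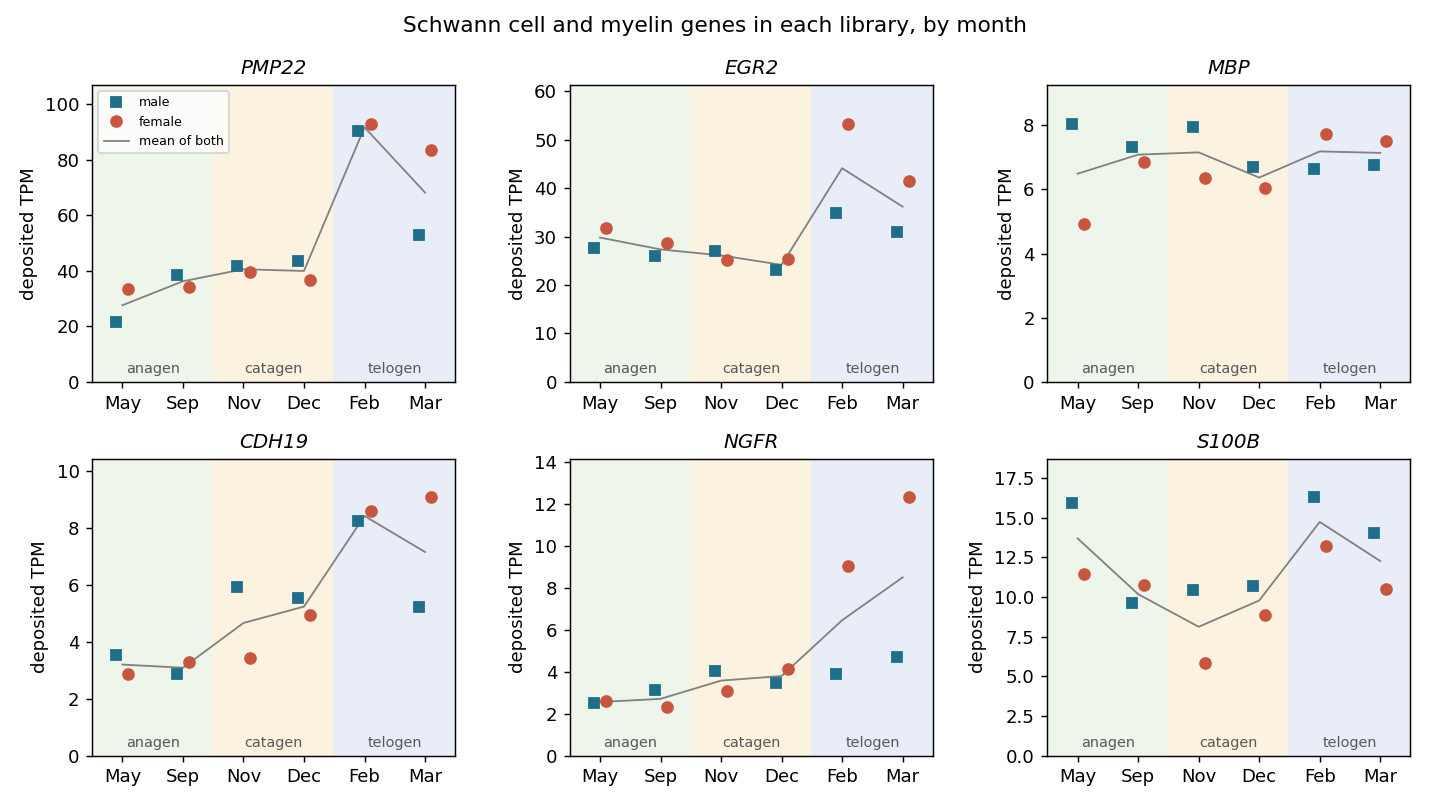
Level of each of the 6 genes (deposited TPM, linear axis from 0) in the male (square) and the female (circle) library of each month, with the mean of both as a line and the stages shaded. PMP22 reaches 52.98 to 92.9 TPM in telogen and at most 43.3 TPM elsewhere, NGFR is high in both telogen females only, and no MBP comparison passed.

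PMP22, the tetraspan protein of compact myelin, rose in telogen. It read 90.3 and 92.9 TPM in February and 53.0 and 83.3 TPM in March, against 41.7, 39.4, 43.3 and 36.5 TPM in catagen and 21.6, 33.6, 38.4 and 34.1 TPM in anagen. Every telogen library lay above every library of the other stages, the March male being the lowest of the 4. The mean was 79.9 ± 18.4 TPM in telogen against 40.2 ± 2.98 TPM in catagen (SD, n = 4 each), a log2 difference of 0.94 (SE 0.189, limma adjusted p = 0.00228). Against anagen, with 31.9 ± 7.21 TPM (SD, n = 4), the log2 difference was 1.29 (SE 0.189, adjusted p = 2.59e-04). These differences were taken on log2(TPM + 1), a scale that understates the change of weakly expressed genes.

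EGR2, the regulator of the myelin programme, rose in telogen as well, by less. It read 34.9 and 53.3 TPM in February and 30.9 and 41.5 TPM in March, against 23.1 to 27.0 TPM in catagen and 26.0 to 31.9 TPM in anagen. The telogen and catagen libraries did not overlap; the March male fell inside the anagen range. The log2 difference was 0.63 (SE 0.139, adjusted p = 0.00391) against catagen and 0.45 (SE 0.139, adjusted p = 0.0160) against anagen. The stage means were 40.1 ± 9.80 TPM in telogen, against 25.1 ± 1.60 TPM in catagen and 28.6 ± 2.45 TPM in anagen (SD, n = 4 each).

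MBP, which holds the cytoplasmic faces of myelin together, did not pass in any comparison. Its mean was 7.16 ± 0.532 TPM in telogen, 6.76 ± 0.834 TPM in catagen and 6.79 ± 1.33 TPM in anagen (SD, n = 4 each). The log2 difference was 0.08 against catagen (SE 0.131, adjusted p = 0.659) and 0.08 against anagen (SE 0.131, adjusted p = 0.615). The 2 extremes over the whole year, 8.05 TPM in the male and 4.93 TPM in the female, were the 2 libraries of May.

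CDH19, a cadherin of Schwann cells and their precursors, rose in telogen against both stages. It read 8.23 and 8.59 TPM in February and 5.23 and 9.06 TPM in March, against 5.90, 3.41, 5.52 and 4.94 TPM in catagen and 2.85 to 3.54 TPM in anagen. All 4 telogen libraries lay above all 4 anagen libraries, and the March male overlapped with catagen. The log2 difference was 1.06 against anagen (SE 0.170, adjusted p = 3.93e-04) and 0.56 against catagen (SE 0.170, adjusted p = 0.0184). The call against catagen rested on 3 female libraries: leaving out the one of November gave adjusted p = 0.0592, that of February 0.0525 and that of March 0.0521. Catagen itself was at 4.94 ± 1.10 TPM against 3.14 ± 0.338 TPM in anagen (SD, n = 4 each), a log2 difference of 0.50 with adjusted p = 0.263, so it did not pass.

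NGFR, which binds nerve growth factor and related neurotrophins, read 9.03 TPM in the February female and 12.3 TPM in the March female. The telogen males had 3.89 and 4.69 TPM, catagen had 3.10 to 4.15 TPM and anagen had 2.31 to 3.11 TPM. Telogen therefore lay above anagen in all 4 libraries, while the February male fell inside the catagen range. NGFR rose by 1.11 against anagen (SE 0.254, adjusted p = 0.00304) and by 0.74 against catagen (SE 0.254, adjusted p = 0.0313). The call against catagen ended with quantile normalization (adjusted p = 0.0611), and without the November female, December male, February female or March female (adjusted p = 0.0638 to 0.0909).

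S100B, a calcium-binding protein of Schwann cells that is also found in fat, pigment and dendritic cells, had its highest values in telogen and in May. It read 16.3, 13.2, 14.1 and 10.5 TPM in telogen, against 10.4, 5.81, 10.7 and 8.85 TPM in catagen and 15.9, 11.5, 9.63 and 10.7 TPM in anagen. The May male was nearly as high as the highest telogen library, and all 3 stages overlapped. It rose by 0.56 in telogen against catagen (SE 0.191, adjusted p = 0.0307), whereas telogen against anagen gave 0.17 (SE 0.191, adjusted p = 0.465). The call was lost without any 1 of 5 libraries, the November female, December female, February female, February male or March male (adjusted p = 0.0542 to 0.0950).

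In counts, 5 of the 6 genes rose in telogen against catagen, where 24.5% of all genes tested rose and 19.0% fell. The median log2 difference of the 6 was 0.59, against 0.07 over all genes. In telogen against anagen 4 of 6 rose, where 29.2% of all genes rose and 23.7% fell, with a median of 0.76 against 0.07. PMP22 and EGR2 had all 4 telogen libraries above all 4 of catagen, a pattern that 19.9% of genes showed, and PMP22, CDH19 and NGFR had them above all 4 of anagen, as did 23.2% of genes. The count against catagen was 2 without the November female, 2 without the February female, 3 without the March female, 4 without the March male and 0 in males alone. The NGFR call was also lost without the December male, and the S100B call without the December female or the February male. Against anagen it was 4 without any 1 library and 2 in males alone. Catagen against anagen called 0 of 6 in limma, with 1 of 6, CDH19, at an unadjusted p under 0.05, where 0.0559% of all genes were called. Both telogen comparisons share the 4 telogen libraries and are not independent. In bulk follicles, more Schwann cells, more RNA per Schwann cell and RNA from other cells that make these genes cannot be told apart. The keratinocyte sum was lower, and the mitochondrial share higher, in the same telogen libraries; their part in the result was not tested.

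**Figure D2:**
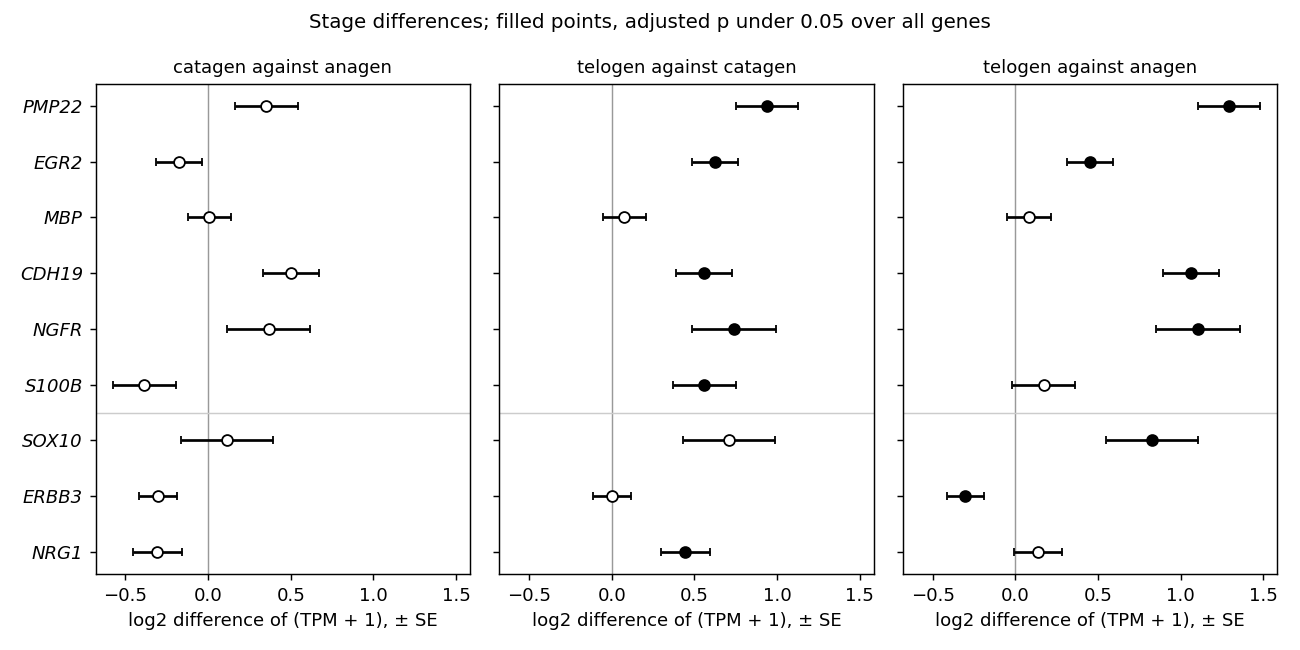
Log2 difference of (TPM + 1) with its SE for the 6 genes (upper rows) and 3 defining genes of Schwann cell biology (lower rows) in the 3 stage comparisons, 4 libraries per stage; filled points passed at adjusted p under 0.05 over all genes. No point is filled for catagen against anagen, and PMP22, NGFR and CDH19 show differences of 1.06 to 1.29 in telogen against anagen.

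By month, PMP22 stood highest in February with a mean of 91.6 TPM, then March with 68.1 TPM, and these months did not overlap with each other or with the third, November with 40.5 TPM. November, December and September, at 40.5, 39.9 and 36.2 TPM, overlapped between neighbours, and May was lowest at 27.6 TPM, below September without overlap. CDH19 ran from 8.41 TPM in February over 7.15 in March, 5.23 in December, 4.66 in November and 3.20 in May to 3.09 TPM in September, each month overlapping with the next in that order. EGR2 had its highest mean in February (44.1 TPM) and its lowest in December (24.2 TPM). NGFR had its highest in March (8.51 TPM) and its lowest in May (2.56 TPM). S100B ran from 14.7 TPM in February to 8.13 TPM in November, and MBP from 7.19 TPM in February to 6.37 TPM in December. Neighbours in order overlapped throughout for EGR2, MBP, NGFR and S100B.

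The F test over the 6 months, with 2 libraries in each, called PMP22 (adjusted p = 0.00691) and CDH19 (adjusted p = 0.0223), 2 of 6 where 32.7% of all genes were called. The CDH19 call was lost without any 1 of the May, September or February libraries (adjusted p = 0.0506 to 0.0708). Between neighbouring months, members passed in 2 of the 6 steps, and MBP and S100B in neither of these. February against December called 2 of 6 higher, PMP22 by 1.18 (SE 0.234, adjusted p = 0.0203) and EGR2 by 0.81 (SE 0.201, adjusted p = 0.0290), where 8.90% of all genes rose. Both calls were lost when any 1 of the 4 libraries of these months was left out. May against March called 3 of 6 lower, where 13.4% of all genes fell. The sum of 9 skeletal muscle genes was 259.5 and 264.5 TPM in the May libraries against 11.1 and 5.56 TPM in those of March, and its part in these calls was not tested. PMP22 fell by 1.27 (SE 0.234, adjusted p = 0.00892), CDH19 by 0.92 (SE 0.255, adjusted p = 0.0274) and NGFR by 1.29 (SE 0.397, adjusted p = 0.0383). Leaving out the May male ended all 3 of these calls, and PMP22 alone kept its call without the May female or without the March female. The NGFR call was also lost without a filter on low values (adjusted p = 0.0586) and without any 1 of the September or December libraries (adjusted p = 0.0532 to 0.0548). S100B was at 15.9 and 11.5 TPM in May against 14.1 and 10.5 TPM in March, a log2 difference of 0.14 (adjusted p = 0.688).

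The other 4 month steps called 0 of 6 members in limma, and none reached an unadjusted p under 0.05. All-gene counts there were small too: 0.137% of genes were called in September against May, 0.0186% in November against September, 0% in December against November and 0.00621% in March against February. PMP22 in March against February was at -0.46 (SE 0.234, adjusted p = 0.988), with the March male at 53.0 TPM and the other 3 telogen libraries at 83.3 to 92.9 TPM.

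Male and female libraries were compared within months. The sexes differed in 0 of 6 members in limma, with 0.0559% of all genes called and 2 members at an unadjusted p under 0.05: S100B at a log2 difference of 0.33 (SE 0.109, adjusted p = 0.616) and EGR2 at -0.23 (SE 0.0942, adjusted p = 0.660). S100B was higher in the male library in 5 of 6 months, September being the exception.

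Within telogen the sexes parted for several of these genes. NGFR had 3.89 and 4.69 TPM in the telogen males and 9.03 and 12.3 TPM in the telogen females. SOX10, the transcription factor that defines the Schwann cell and melanocyte lineages, had 4.58 and 3.05 TPM in telogen males and 9.38 and 11.01 TPM in telogen females. In both of these genes the telogen females lay above the other 10 libraries. The same held for EGR2 and CDH19, so for 3 of the 6 members in all, a pattern that 11.9% of all genes showed. S100B parted the other way, with 16.28 and 14.06 TPM in telogen males and 13.19 and 10.48 TPM in telogen females.

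Stage contrasts were taken within each sex, with 2 libraries per stage, from a model of stage and sex over all 12 libraries. Both sexes thus shared the estimate of spread. Telogen against catagen called 0 of 6 members in males (8.46% of all genes rose) and 4 of 6 in females (18.1% rose). In males 2 of 6 had an unadjusted p under 0.05. Telogen against anagen called 2 of 6 in males (12.4% rose), PMP22 and CDH19, and 4 of 6 in females (21.5% rose), EGR2 and NGFR in addition. The median log2 difference of the 6 against catagen was 0.28 in males and 0.91 in females, beside 0.05 and 0.07 over all genes. For NGFR against catagen it was 0.15 (SE 0.191) in males and 1.33 (SE 0.191) in females.

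The difference between the sexes did not itself pass. The interaction of stage and sex called 0 of 6 members and 0.00621% of all genes in limma. NGFR, with an unadjusted p of 0.00121 and an adjusted p of 0.3095, was the 1 member under an unadjusted 0.05. SOX10 had adjusted p = 0.398. In the single contrasts of males minus females, the telogen difference against catagen had 3 members at an unadjusted p under 0.05, NGFR at -1.18 (SE 0.271, adjusted p = 0.231), CDH19 at -0.76 (adjusted p = 0.328) and EGR2 at -0.49 (adjusted p = 0.365). Against anagen there were 2, NGFR at -1.28 (adjusted p = 0.268) and MBP at -0.51 (adjusted p = 0.456). Splitting by sex was done after these values had been seen. Other values moved along with sex in telogen. The summed level of 9 endothelial genes was 137.6 and 153.8 TPM in telogen males against 230.2 and 270.8 TPM in telogen females. That of 7 adipocyte genes was 83.6 and 72.4 TPM in telogen males against 132.1 and 116.4 TPM in telogen females. That of 8 myeloid genes was 75.12 and 55.81 TPM in telogen males against 93.22 and 105.3 TPM in telogen females. That of 10 fibroblast genes ran the other way, 1313 and 1780 TPM in telogen males against 916.2 and 864.3 TPM in telogen females. So did that of 10 keratinocyte genes, 16020 and 19100 TPM in telogen males against 14220 and 11900 TPM in telogen females. The sum of 12 melanocyte genes did not part by sex, with 145.4 and 148.8 TPM in telogen males and 147.5 and 127.2 TPM in telogen females. Of these 12, telogen against catagen called 0 in males (median log2 difference 0.08). In females 6 rose and 3 fell (median 0.61). Over all genes, 8.46% rose in males and 18.1% in females. The part of these cells in the result was not tested.

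**Figure D3:**
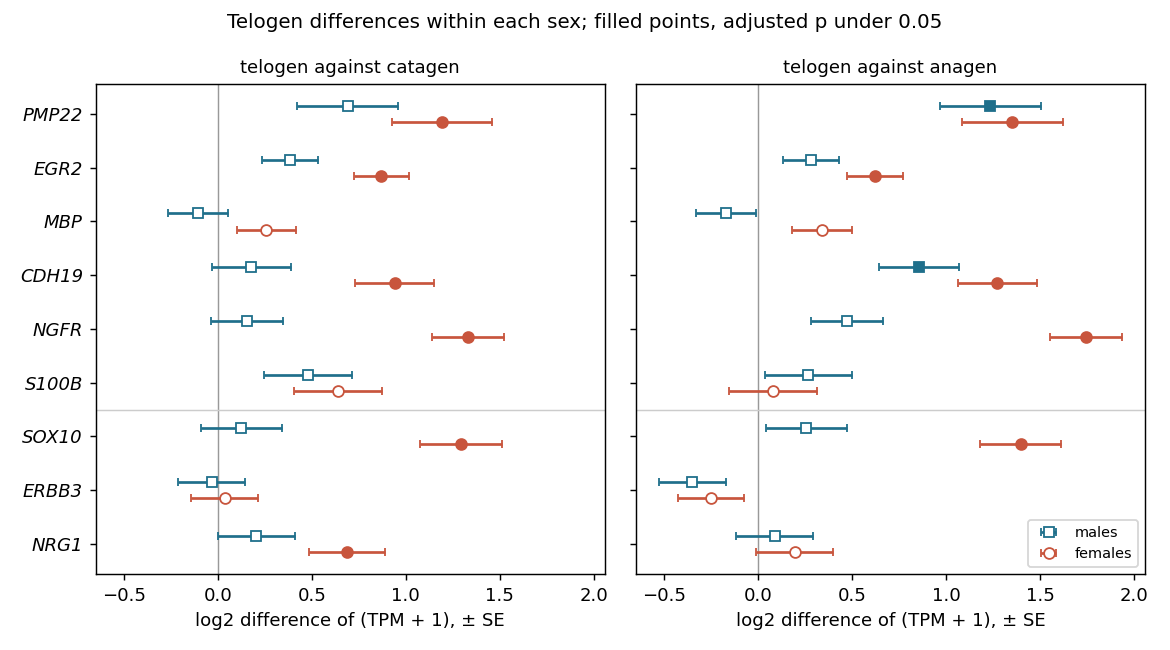
Log2 difference of (TPM + 1) with its SE for telogen against catagen and telogen against anagen, within males (squares) and within females (circles). There were 2 libraries per stage and sex, and both sexes shared the estimate of spread. Filled points passed at adjusted p under 0.05. NGFR against catagen is at 0.15 in males and 1.33 in females, S100B at 0.48 in males and 0.64 in females, and ERBB3 at -0.03 in males and 0.04 in females.

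Genes of the myelin programme, PMP22 and MBP among them, moved both ways. Of 20 genes for myelin proteins and lipids, 19 were in the table and 15 were tested. In telogen against catagen 6 rose, PMP22 among them, and 3 fell (median log2 difference 0.30, over all genes 0.07). Against anagen 6 rose, PMP22 again among them, and 4 fell (median 0.26, over all genes 0.07). Over all genes, 24.5% rose and 19.0% fell against catagen, and 29.2% rose and 23.7% fell against anagen. These shares stand beside every list count below that pools the sexes. MPZL1, a membrane adhesion protein of many tissues, rose by 0.30 against catagen and 0.22 against anagen, and paired log2 differences below are given in that order. CD9, a tetraspanin of Schwann cells and keratinocytes, fell by 0.65 and 0.73, at a mean level of 466 TPM over all libraries. Named after their values were seen, UGT8, which makes the myelin lipid galactosylceramide, rose by 0.70 and 1.11, whereas PRX, the periaxin of myelinating Schwann cells, fell by 0.81 and 0.96 and CNP by 0.46 and 0.75.

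Regulators of the Schwann cell also moved both ways. Of 16 transcription factors 14 were tested. In telogen against catagen 7 rose, EGR2 among them, and 4 fell (median 0.44). Against anagen 9 rose, EGR2 again among them, and 4 fell (median 0.44). EGR1, of the same family as EGR2, rose by 0.97 and 0.91, and EGR3, named after its values were seen, by 0.75 and 0.77. NAB2, a co-repressor that binds EGR proteins, fell by 0.74 and 0.79, as did JUN, a driver of the repair Schwann cell in mouse, by 0.71 and 0.78. TFAP2A, a regulator of the neural crest and of epidermis, rose by 0.81 and 1.02. SOX10 rose by 0.83 against anagen (SE 0.277, adjusted p = 0.0236) and had 0.71 with adjusted p = 0.0532 against catagen, so 4 telogen libraries at 3.05 to 11.01 TPM stood against 2.83 to 3.96 TPM in catagen and 2.66 to 3.92 TPM in anagen.

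Of 16 genes of precursor and non-myelinating Schwann cells, CDH19, NGFR and S100B among them, 14 were tested. In telogen against catagen 8 rose, 3 of them members, and 1 fell (median 0.50), where 24.5% of all genes rose and 19.0% fell. Against anagen 8 rose, 2 of them members, and 2 fell (median 0.60), where 29.2% of all genes rose and 23.7% fell. NCAM1, a neural adhesion molecule, rose by 0.41 and 0.62, and ATP1B2, a glial sodium pump subunit, by 1.09 and 0.89. FABP7, a fatty acid binding protein of Schwann cell precursors, fell by 0.98 and 0.69. ERBB3 fell by 0.30 against anagen (adjusted p = 0.0394) and showed a log2 difference of 0.00 against catagen (adjusted p = 0.995).

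Genes for signals that reach Schwann cells moved both ways, and the cells that made their transcripts were not told apart. Of 15 tested genes for neuregulin, laminin and adhesion receptors 2 rose and 1 fell in telogen against catagen (median -0.06), and 3 rose and 4 fell against anagen (median -0.19). NRG1, the axonal ligand that drives myelination, rose by 0.45 against catagen (SE 0.146, adjusted p = 0.0260), with 7.31 ± 0.896 TPM in telogen against 5.13 ± 0.932 TPM in catagen (SD, n = 4 each), and had 0.14 against anagen (adjusted p = 0.439). ADGRG6, an adhesion receptor needed for myelination in mouse and zebrafish, rose by 0.53 against catagen and 0.56 against anagen. ITGB1, a laminin receptor subunit, fell by 0.63 and 0.53, ERBB2 fell by 0.48 against anagen, and ITGA6 rose by 0.33 against anagen.

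The neurotrophin and GDNF family list, of which NGFR is a member and 17 of 19 genes were tested, had 3 higher and 2 lower against catagen (median 0.12) and 6 higher and 2 lower against anagen (median 0.21). MAGED1, an intracellular partner of NGFR, rose by 1.21 against catagen and 1.36 against anagen, and NTRK2, the receptor for brain-derived neurotrophic factor, by 0.80 and 0.59. RET, the signalling receptor of the GDNF family, fell by 0.86 and 0.83, and NTF4, a ligand of NTRK2, by 0.50 and 0.78. GFRA1, a GDNF co-receptor, rose by 0.35 against anagen. Without the March male 5 genes of this list rose against catagen.

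Of 15 axon and neuron genes 13 were in the table and 8 passed the filter on low values; the cell bodies of these neurons lie outside skin. STMN2, a growth-associated tubulin-binding protein, rose by 0.96 against catagen (SE 0.235, adjusted p = 0.00655) and by 1.35 against anagen (SE 0.235, adjusted p = 6.23e-04). It read 8.60, 16.1, 10.3 and 18.1 TPM in telogen, against 4.36 to 8.61 TPM in catagen and 3.02 to 5.63 TPM in anagen. SCN9A, a sodium channel of sensory neurons, rose by 0.59 and 0.88 at a mean of 1.89 TPM, and PRPH, an intermediate filament of peripheral neurons, fell by 0.62 against anagen. These made 2 higher and 0 lower against catagen, and 2 higher and 1 lower against anagen. In catagen against anagen none of the 6 lists held a gene that passed.

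**Figure D4:**
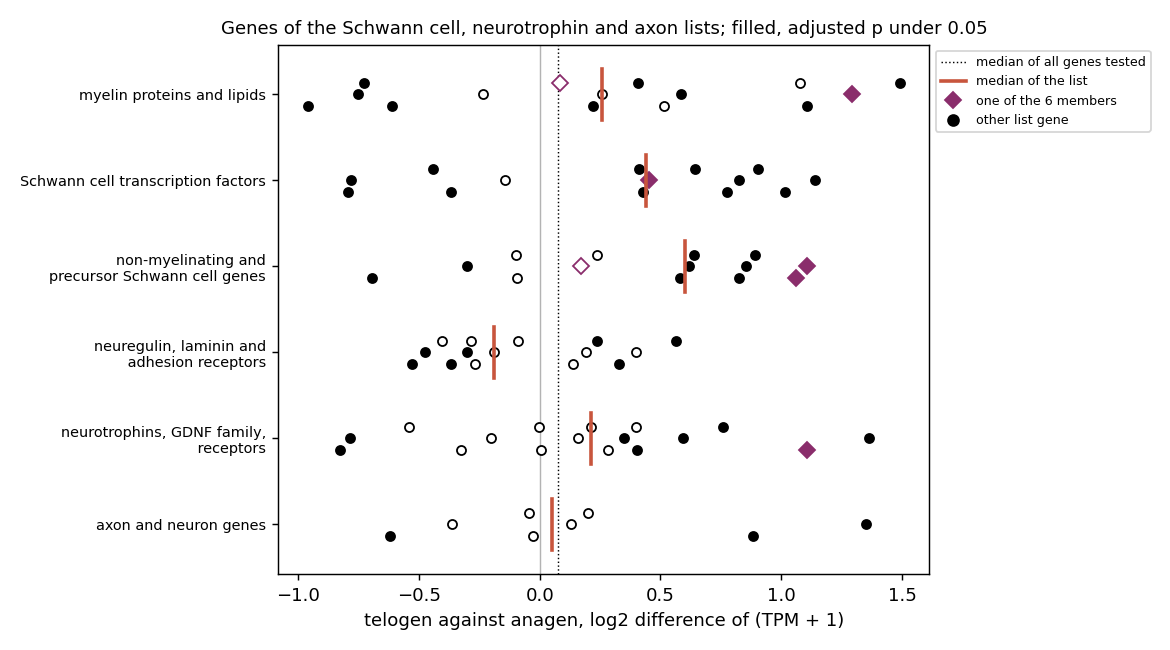
Log2 difference of (TPM + 1) for telogen against anagen of every tested gene in 6 lists of the Schwann cell, its signals and its axons; filled points passed at adjusted p under 0.05, diamonds are the 6 genes of this account, a bar marks the median of each list and the dotted line the median of all genes, 0.07. The list of non-myelinating and precursor genes has its median at 0.60, and that of neuregulin, laminin and adhesion receptors at -0.19.

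Markers of other cells that make some of these genes were read beside them. With the 6 genes left out, the summed level of 12 melanocyte genes was 127.2 to 148.8 TPM in telogen, 155.8 to 191.4 TPM in catagen and 149.6 to 186.0 TPM in anagen, a lower range in telogen than in the other stages; pigment cells share SOX10 and S100B with Schwann cells. Gene by gene the picture differed from the sum. Of 12 tested melanocyte genes 3 rose and 2 fell in telogen against catagen, and 9 had a positive log2 difference (median 0.36, over all genes 0.07). Against anagen 3 rose and 3 fell, and 7 had a positive log2 difference (median 0.02, over all genes 0.07). The sum of 7 dendritic cell genes was 26.6 to 32.9 TPM in telogen, 12.8 to 15.8 TPM in catagen and 16.2 to 19.2 TPM in anagen. The sum of 7 adipocyte genes was 72.4 to 132.1 TPM in telogen, 56.2 to 63.6 TPM in catagen and 48.0 to 90.4 TPM in anagen. S100B is made by both of these cell types, and their part in its rise was not tested. For 10 dermal fibroblast genes, which come from cells that also make PMP22 and EGR2, the sum was 864.3 to 1780 TPM in telogen, 785.7 to 1427 TPM in catagen and 1316 to 1889 TPM in anagen, with 0 higher and 1 lower of 10 against catagen. The 8 Schwann cell markers other than the members, ERBB3 included, summed to 121.7 to 161.2 TPM in telogen, 113.3 to 135.5 TPM in catagen and 122.9 to 166.9 TPM in anagen, and the stages overlapped. With ERBB3 set aside after its level was seen, the other 7 summed to 24.6 to 60.5 TPM in telogen, 23.3 to 29.4 TPM in catagen and 21.8 to 24.1 TPM in anagen. No gene of these lists was at 0 in all libraries.

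The 6 genes did not follow one common course. Across the 12 libraries Pearson's r of the log2 levels was 0.86 for PMP22 with CDH19, 0.83 for CDH19 with NGFR, 0.79 for PMP22 with NGFR and 0.75 for EGR2 with either PMP22 or NGFR. MBP had 0.17 to 0.38 with the others and S100B 0.09 to 0.42. After the stage means were taken off, EGR2 with NGFR stood at 0.61 and PMP22 with CDH19 at 0.39. These values describe 12 libraries that share the step into telogen.

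Among all tested genes with a mean of at least 5 TPM, the 3 most like PMP22 were CAPNS1 (r = 0.97), TRDMT1 (0.97) and JAZF1 (0.97). EGR2 was most like PHLDA1 (0.96), CRTC2 (0.95) and EGR1 (0.95), CDH19 most like RABGAP1 (0.98), PLEKHA5 (0.98) and CBLL1 (0.97), and NGFR most like FLRT2 (0.98), ARHGAP31 (0.98) and ARAF (0.97). MBP was most like RRAGB (0.82), IL1A (0.82) and SGF29 (0.79), and S100B most like ZNF599 (0.90), PAXBP1 (0.89) and DPPA2 (0.88). Each of these is a description over 12 libraries. On deviations from the stage means the same pairs had r of 0.79 to 0.96. Ranked by Spearman's rho, 1 of the 18 genes was named again.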

How the data were processed

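The deposited signal, 1 value per gene and library, carries the heading TPM; library sums run from 904623 to 1127797, where TPM would give equal sums, so the authors had rescaled it by steps not given in the sources used here. Per the submitters' processing notes kallisto 0.46.1 and sleuth 0.30.0 were used; no genome build is named. Read depth is unknown, so no counting interval is given. Symbols were matched by gene ID to the reference table (20294 of 20326).

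Genes with at least 1 TPM in at least 2 libraries (16095) were tested across all genes as log2(TPM + 1) in limma 3.58.1 (R 4.3.3) with a mean-variance trend. Stage, month, and stage together with sex were each fitted as groups over all 12 libraries. The sexes were compared in a model that also held month. Benjamini-Hochberg adjustment ran over all genes, with calls at 0.05. The models were tested on simulated data. The replicate number marks sex. No label says that an animal gave only 1 library, so the p-values cover the spread among these libraries, part of which may be technical. At most 1.55% of tested genes had equal values in any pair of libraries.

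Members and lists were chosen with earlier results of these data known. Named were the members, SOX10, ERBB3 and NRG1, the 3 genes most like each member, and per list the 4 called genes with the highest mean; others are said to be chosen afterwards. Some genes that this rule names are not reported here. No sequences are printed. Alternatives covered scaling, filter, pseudocount, variance trend, replicate block, month means and left-out libraries. For the gene lists only the March male was left out.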

Additional observations from a re-analysis of the deposited data

How the results depend on the processing

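The 4 calls of telogen against anagen held under the alternatives run for each gene except males alone, which left 2; NGFR, below the mean of 5 in one filter, was not tested under it, and no member's called direction was reversed. With 1 library left out, members called ranged from 2 to 5 in telogen against catagen (2 without the November female or February female, 3 without the March female), 0 to 2 in February against December, 0 to 3 in May against March and 1 to 4 in the F test over months. In males alone telogen against catagen called 0 members and 1743 genes (7011 over both sexes), and telogen against anagen called 2 members and 3618 genes (8512 over both sexes).

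Genes called over the whole table with 1 library left out ranged from 3 to 13 in catagen against anagen, 11 to 33 in September against May, 0 to 5 in November against September, 0 to 3 in December against November, 19 to 4467 in February against December, 0 to 12 in March against February, 264 to 5956 in May against March, 2293 to 7237 in the F test and 0 to 4 in the interaction. Without both May libraries catagen against anagen gave 4 genes (main value 9). September against May (22) gave 9 with a mean of at least 5 and 12 with a pseudocount of 0.1. November against September (3) gave 1 without a filter, 5 with a pseudocount of 0.1 and 1 with the replicate block. March against February (1) gave 0 after rescaling to equal sums and 3 without a variance trend. The interaction (1) gave 5 after rescaling, 2 without a filter, 0 with a mean of at least 5 and 4 without a trend. The gene lists were counted again without the March male only, so their dependence on the telogen females was not tested. Without the March male, 5 neurotrophin list genes rose against catagen (3 with it) and 2 receptor list genes fell against catagen (1 with it). In the precursor list 1 gene fell against anagen (2 with it). Spearman's rho named 1 of 18 like genes again. The causes were not tested.

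The replicate number marks sex. Deviations from the stage means correlated at -0.15 to 0.24 between same-numbered libraries of different stages, and at -0.30 to 0.33 between other-numbered ones. Such values cannot show whether an animal was sampled more than once, which stays unknown. With the replicate block the stage comparisons called the same number of members (0, 5 and 4), and the F test over months 3 in place of 2.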

Other observations

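The genes named in these paragraphs were chosen after their values were seen. Several immune cell genes rose in telogen. Over all genes, 24.5% rose and 19.0% fell against catagen, and 29.2% rose and 23.7% fell against anagen. Of 7 tested myeloid genes 5 rose and 0 fell against catagen and 4 rose against anagen, led by LAPTM5, a lysosomal protein of leukocytes (1.20 and 1.05 on the log2 scale), and CD68, a macrophage marker (0.91 and 0.89). Of 7 tested dendritic and Langerhans cell genes, S100B among them, 5 rose against catagen and 3 against anagen. XCR1, a chemokine receptor of cross-presenting dendritic cells, rose by 1.10 against catagen and 1.12 against anagen, and FLT3, a growth factor receptor of dendritic cells and their precursors, by 0.83 and 0.81. Of 8 tested T cell genes 3 rose and 0 fell against catagen, and 4 rose and 1 fell against anagen, GZMA, a granule protease of cytotoxic cells, by 1.07 and 1.34.

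Dermal papilla genes rose in 3 of 9 against catagen and 5 of 9 against anagen, with 0 lower, among them NDNF by 0.34 and 0.38. Of 9 endothelial genes 1 rose and 2 fell against catagen, and 4 rose and 1 fell against anagen, EMCN, an endothelial sialomucin, rising by 0.71 and 1.28 and CLDN5, a tight junction protein, falling by 0.96 and 0.84. By sex, 0 endothelial genes rose and 3 fell against catagen in males (median -0.54), and 5 rose and 1 fell in females (median 0.64). Of the 7 myeloid genes 0 rose in males and 6 in females. Over all genes, 8.46% rose against catagen in males and 18.1% in females. The differences between the sexes in these lists were not tested as a list. Of 9 tested perineurial and endoneurial genes, NGFR among them, 2 rose and 1 fell against catagen and 3 rose and 1 fell against anagen; ETV1, an ETS transcription factor, rose by 0.90 and 1.29. Of 8 smooth muscle and pericyte genes 0 rose and 2 fell against catagen, and 2 rose and 1 fell against anagen. Of 9 tested skeletal muscle genes 0 passed against catagen and 3 fell against anagen. The skeletal muscle sum was 259.5 and 264.5 TPM in May, with at most 12.6 TPM in any other month.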
